A study of Homo sapiens with 46 samples.

Results

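Complex I of the respiratory chain is built from subunits of 2 genomes, and the data below follow the nuclear ones: the 38 protein-coding genes of 58735 genes listed whose symbol is NDUF followed by A, AB, B, C, S or V and a number. The choice used the names and biotypes alone, so assembly factors named NDUFAF are not among them. Libraries were made from HEK293T cells, a wild-type human embryonic kidney line of epithelial-like type. The cells received a single chimera of pCox4, a presequence that directs cargo into mitochondria, joined to a morpholino (a neutral DNA analogue that pairs with RNA and blocks it) against a single mRNA of mitochondrial DNA (mtDNA). Of the 11 chimeras, 5 target complex I mRNAs (ND1, ND2, ND3, ND4L and ND5), while the other 6 target ATP6, ATP8, COX1, COX2, COX3 and CYTB. ATP6 and ATP8 lie on the same mRNA, and the study reports that the ATP8 chimera also lowered ATP6 synthesis. Averages over the 6 therefore count that mRNA through both chimeras. All chimeras were added to the medium at 2 µM with EndoPorter, a delivery reagent, for 48 hours. Control cells received pCox4 in click reaction buffer with no morpholino. No library had a morpholino without an mtDNA target. Against control, a change common to all chimeras therefore cannot be told apart from an effect of any morpholino. There were 4 control libraries and 4 libraries per chimera, except for COX2 and ND2 with 3 each, 46 in all. Replicates 1 and 2 form batch 1 and replicates 3 and 4 batch 2, prepared on different days with different reagents, and every group is 1 line grown under 1 condition. The comparisons ask whether mRNAs for the nuclear partners change when synthesis of a mitochondrial subunit is blocked, and whether blocking a complex I subunit differs from blocking the rest.

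Complex I oxidizes NADH in the matrix, passes the electrons to ubiquinone and pumps protons across the inner membrane. The N module binds NADH and flavin, the Q module reduces ubiquinone, and the proximal and distal parts of the membrane arm pump protons. The 7 mtDNA-encoded subunits sit in the membrane arm, and the nuclear subunits are imported and joined to them in stepwise assembly, so that the complex needs both genomes. NDUFA4 carries a complex I name and fits the rule, but is known as a subunit associated with complex IV. By role, the members fall into 10 genes of the N module, 6 of the Q module, 9 of the proximal and 11 of the distal membrane arm, the acyl carrier protein NDUFAB1, and NDUFA4. The core subunits, among them NDUFV1, NDUFV2, NDUFS1, NDUFS3, NDUFS7 and NDUFS8, which carry the flavin, the iron-sulfur clusters and the quinone site, are conserved from bacteria.

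Libraries held between 18876395 and 100698084 counts (median 23413171), and COX3 replicate 4 alone exceeded 28121898. The targeted mRNA itself was lower in MT-CO1, MT-CO3 and MT-CYB and higher in MT-ND1, MT-ND2 and MT-ND3 after their own chimera, each with an adjusted p under 0.05 in the fit described below, and did not pass in the other 5. Of the 7 markers expected in this line, the keratin gene KRT8 was at 338 to 518 CPM (counts scaled to a common library size), PAX2, a kidney factor, at 4.81 to 9.96 CPM and NEFM, a neurofilament gene, at 0.451 to 2.00 CPM, and VIM, KRT18, NEFL and LIN28B were all over 80 CPM. PTPRC, CD3E, HBB, PECAM1 and ALB stayed under 1 CPM, whereas COL1A1, a fibroblast collagen, reached 20.1 to 31.6 CPM. In bulk RNA, fewer cells that express a gene and less of its RNA per cell cannot be told apart.

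In the control libraries the members covered a wide range of mRNA levels. Compared per length, as CPM per 1000 bases of the deposited gene length (RPKM), the highest were NDUFS5 at 296 ± 25.3 (SD, n = 4), an accessory subunit facing the intermembrane space, NDUFB7 at 165 ± 17.3 and NDUFB11 at 96.3 ± 6.21, both of the distal arm. The lowest were NDUFV2 at 0.805 ± 0.165, the core subunit beside the flavin site, NDUFA7 at 1.12 ± 0.239 and NDUFA9 at 2.20 ± 0.162. The mean of the highest was 368 times that of the lowest, and 29 members had a mean over 10 RPKM. Of the 37 neighbours in this order, 17 pairs differed by more than the SD of both genes. The core subunits are spread over the order, with NDUFV1 at 23.6 ± 0.345 RPKM, NDUFS3 at 19.9 ± 1.24, NDUFS8 at 15.1 ± 0.805, NDUFS1 at 13.2 ± 0.150 and NDUFS7 at 6.13 ± 0.494. Gene lengths span from 531 bases (NDUFB7) to 12268 bases (NDUFS1) and counts were not made per transcript, so the order on the CPM scale is different (Spearman rho 0.606 between the orders, across the 38 genes).

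**Figure D1:**
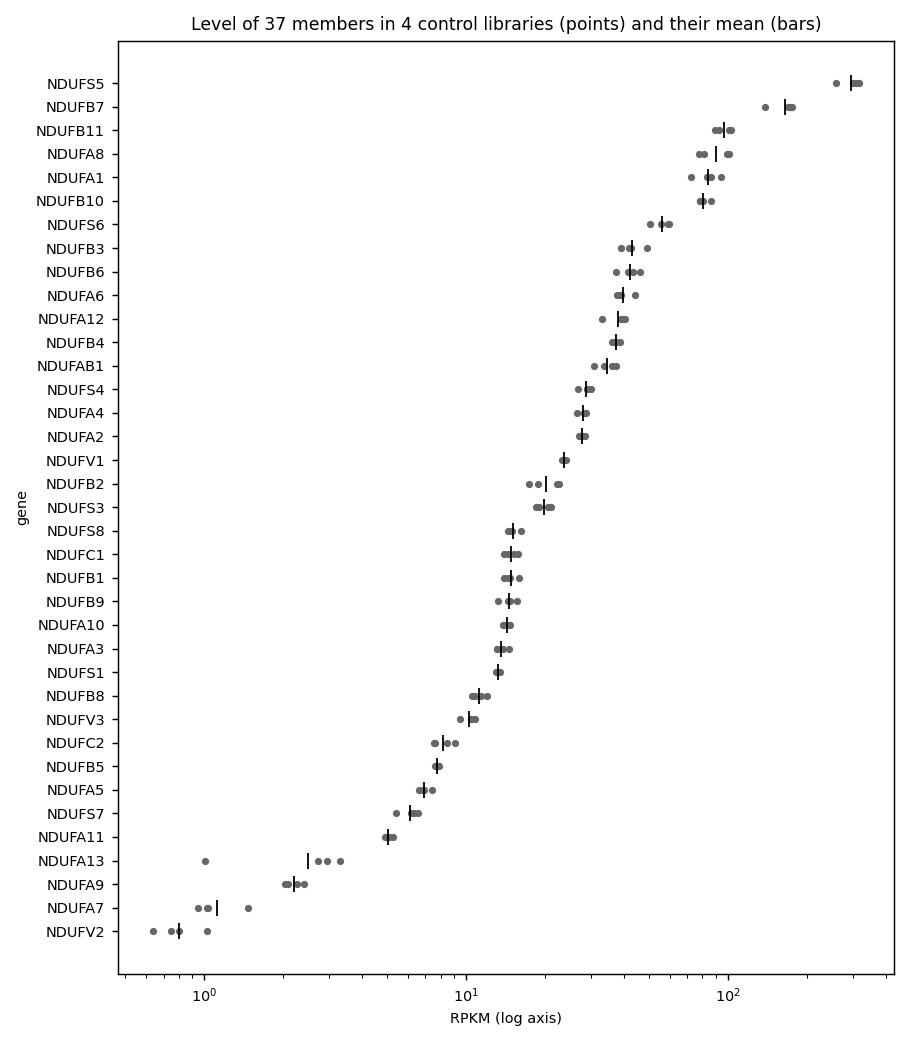
RPKM of 37 members on a log axis in the 4 control libraries (points) with the mean (bars), sorted by mean. NDUFS5 lies highest at 296 RPKM and NDUFV2 lowest at 0.805 RPKM, and most genes vary little between libraries beside the distance between genes.

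3 members, NDUFV2, NDUFA7 and NDUFA13, lay under 10 CPM in control, and their values rest on few reads. NDUFA13 (also GRIM-19, a membrane arm subunit) was at 7.36 and 2.73 CPM in control replicates 1 and 2 and at 8.96 and 7.95 CPM in replicates 3 and 4. It also shares exon bases on the same strand with AC011448.1 (437 bases) and YJEFN3 (131 bases). Over the 46 libraries these genes had 3694 and 40375 counts, beside 9240 for NDUFA13. In NDUFV2, 27.0% of the 50-base words of its transcripts occur in other genes, and in NDUFA7 32.5%. Over all members, 22 share exon bases with another annotated gene and 9 have no 50-base word in common with one. The counter's treatment of shared reads and of strand is not given in the sources used here, so levels of the genes that share sequence are uncertain. NDUFS6, on which much of what follows turns, shares no exon base with another gene.

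Changes after each chimera were tested on the counts with edgeR (quasi-likelihood F test) in 1 fit over all libraries and 20272 genes, with batch as a term. A member is called changed at a Benjamini-Hochberg adjusted p under 0.05 over all 20272 genes. All 38 members passed the filter on low counts. Of the 418 tests of a member after a chimera, 1 was called: NDUFS6 rose after ND4L silencing, at 0.148% of all genes called in that comparison. None of the members was called lower. An unadjusted p under 0.05 was found in 107 of the 418 tests, all 107 of them higher. DESeq2 gave 403 of the 418 tests an adjusted p and left 15 without one, and called 9 (2.23%), all higher, in 6 of the chimeras, against 0.954% of its tests over all genes. Each share of all genes given beside a DESeq2 call is of the genes to which it gave an adjusted p. All 11 comparisons use the same 4 control libraries, so their directions are not independent of each other. The share of all genes in each comparison is given beside these counts as a background. It is not of genes of like level. A minimum mean of 1 CPM would leave 15260 genes, all 38 members among them, and 35 members lay over 10 CPM in control.

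Among chimeras against complex V and III mRNAs, shifts of the members were small and mostly upward. After ATP6 silencing, 33 of 38 members had a log2 fold change above 0 with a median of 0.11, and 8 (21.1%) had an unadjusted p under 0.05 against 9.08% of all genes. No member was called by edgeR, against 0.00987% of all genes, nor by DESeq2, against 0.145%. After ATP8 silencing, 36 were above 0 with a median of 0.14, and 14 (36.8%) had an unadjusted p under 0.05 against 10.2% of all genes. Called members numbered 0, against 0.0641% of all genes, and DESeq2 called NDUFB9, a distal arm subunit, against 0.766% of all genes. After CYTB silencing, 34 were above 0 with a median of 0.10, and 14 (36.8%) had an unadjusted p under 0.05 against 13.7% of all genes. Here 0 members were called, against 0.548% of all genes, whereas 2 were called with the replicate number as a block, against 1.08% of all genes, and 2 by DESeq2, against 2.5%. These were NDUFS6 and the NADH-binding flavoprotein NDUFV1 in both.

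Silencing of the complex IV mRNAs gave the same order of magnitude. After COX1 silencing, 33 members were above 0 with a median of 0.060, and 8 (21.1%) had an unadjusted p under 0.05 against 7.44% of all genes. None was called, against 0.0543% of all genes, and none by DESeq2, against 0.158%. The median was −0.0013 in batch 1 alone and 0.17 in batch 2 alone. After COX2 silencing, 34 were above 0 with a median of 0.12, and 8 (21.1%) passed at the unadjusted p against 13.6% of all genes, none at the adjusted p against 0.469%. DESeq2 called NDUFB9, against 2.41% of all genes. After COX3 silencing, 35 were above 0 with a median of 0.095, and 10 (26.3%) passed at the unadjusted p against 10.4% of all genes, none at the adjusted p against 0.306%. NDUFB9 was called there by DESeq2, against 1.07% of all genes, and with the replicate block, against 0.779%.

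Among the ND chimeras the spread of the medians was wider than among the others. ND1 silencing gave the largest, with 36 members above 0, a median log2 fold change of 0.17 and 18 members (47.4%) at an unadjusted p under 0.05 against 11.7% of all genes. At the adjusted p 0 were called, against 0.0888% of all genes, 2 with the replicate block, against 0.385%, and 2 by DESeq2, against 1.27%, NDUFB9 among them in both. After ND4L silencing, 32 were above 0 with a median of 0.12, 16 (42.1%) passed at the unadjusted p against 14.1% of all genes, and DESeq2 called NDUFV1 beside NDUFS6, against 2.84%. ND5 silencing gave 29 above 0, a median of 0.072 and 7 (18.4%) at the unadjusted p against 9.3% of all genes, with none called by edgeR, against 0.158%, or DESeq2, against 0.877%. The shares at the unadjusted p were closest to those of all genes after ND2 and ND3 silencing. ND2 silencing had 31 members above 0, a median of 0.055 and 3 (7.89%) against 4.91% of all genes, with none called by either tool, against 0.0247% of all genes in each. ND3 silencing had 26 members above 0, a median of 0.028 and 1 (2.63%) against 3.31% of all genes, with none called by either tool, against 0.00987% of all genes with edgeR and 0.0148% with DESeq2. Batches differed in these chimeras: the median in batch 1 alone and batch 2 alone was 0.11 and 0.19 after ND1, 0.027 and 0.072 after ND2, −0.043 and 0.11 after ND3, 0.033 and 0.18 after ND4L and 0.0059 and 0.11 after ND5 silencing. Outside this class, besides COX1, the medians were 0.086 and 0.091 after ATP6, 0.13 and 0.14 after ATP8 and 0.075 and 0.13 after COX3. Batch 1 was the higher after COX2 (0.17, a single treated library, and 0.087) and CYTB silencing (0.13 and 0.088). Median log2 fold changes over all genes lay between −0.0032 and 0.0040 in the 11 comparisons. The scaling of the libraries takes most genes as unchanged, so these values cannot show whether all genes shifted.

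**Figure D2:**
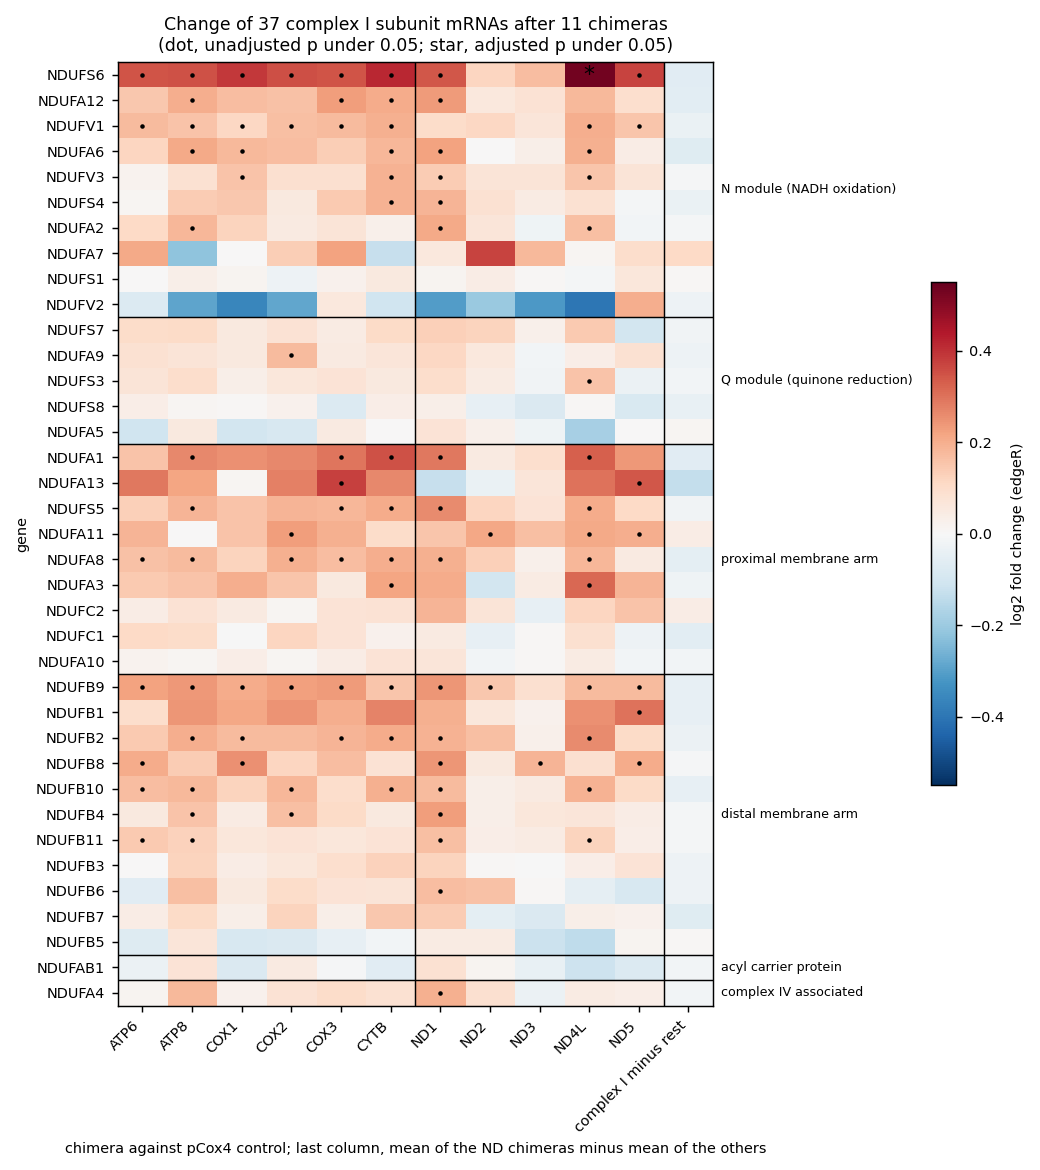
log2 fold change against control (colour) for 37 members (rows, by module) after 11 chimeras and in the contrast of ND chimeras minus the others (last column); dots mark an unadjusted p under 0.05 and the star the adjusted p under 0.05 of NDUFS6 after ND4L silencing. Most cells of the 11 chimera columns are above 0 (red), the last column is near 0.

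NDUFS6 is a zinc-binding subunit at the base of the N module that is needed late in assembly. It lies on chromosome 5, from 1801400 to 1816605 on the plus strand (ENSG00000145494, GRCh38, GENCODE 29). In control its level was 85.7 and 86.6 CPM in batch 1 and 73.1 and 80.3 CPM in batch 2. After ND4L silencing it was 98.7 and 118.5 CPM in batch 1 and 124.1 and 129.5 CPM in batch 2. All 4 ND4L libraries thus lay above all 4 controls. The log2 fold change was 0.53 ± 0.11 (SE; 95% interval 0.31 to 0.75), 1.44-fold, with an edgeR adjusted p of 0.0188. Within batch 1 alone the log2 fold change was 0.33 (adjusted p = 0.998) and within batch 2 alone 0.72 (adjusted p = 0.0038). Without a batch term the adjusted p was 0.117. The call was lost on leaving out control replicate 3 (adjusted p = 0.176), control replicate 4 (0.149), ND4L replicate 3 (0.115) or ND4L replicate 4 (0.102), with log2 fold changes from 0.47 to 0.51.

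NDUFS6 stood higher than control after the other chimeras too, though none of these passed the adjusted threshold. It was 93.2, 132.1, 86.6 and 102.6 CPM after ATP6, 97.1, 93.5, 109.5 and 116.2 CPM after ATP8, and 125.1, 110.8, 99.3 and 98.7 CPM after CYTB silencing. It was 89.6, 115.4, 108.3 and 114.3 CPM after COX1 silencing, 107.1, 94.9 and 112.0 CPM (replicates 2 to 4) after COX2 and 106.9, 86.8, 97.0 and 122.9 CPM after COX3. These libraries all lay above the control mean of their batch, and 22 of the 23 above the highest control. After ND1 silencing NDUFS6 was 107.6, 98.9, 111.9 and 95.2 CPM, and after ND5 87.2, 125.5, 100.8 and 108.5 CPM. After ND2 silencing it was 78.3, 93.2 and 95.6 CPM (replicates 1, 3 and 4), and after ND3 90.4, 81.7, 83.0 and 112.2 CPM. The ND2 and ND3 libraries overlap the controls, and the 2 treated libraries of all 42 that fell under the control mean of their batch are ND2 replicate 1 and ND3 replicate 2. The log2 fold change ranged from 0.12 after ND2 (adjusted p = 0.998) to 0.41 after CYTB silencing (adjusted p = 0.0561).

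**Figure D3:**
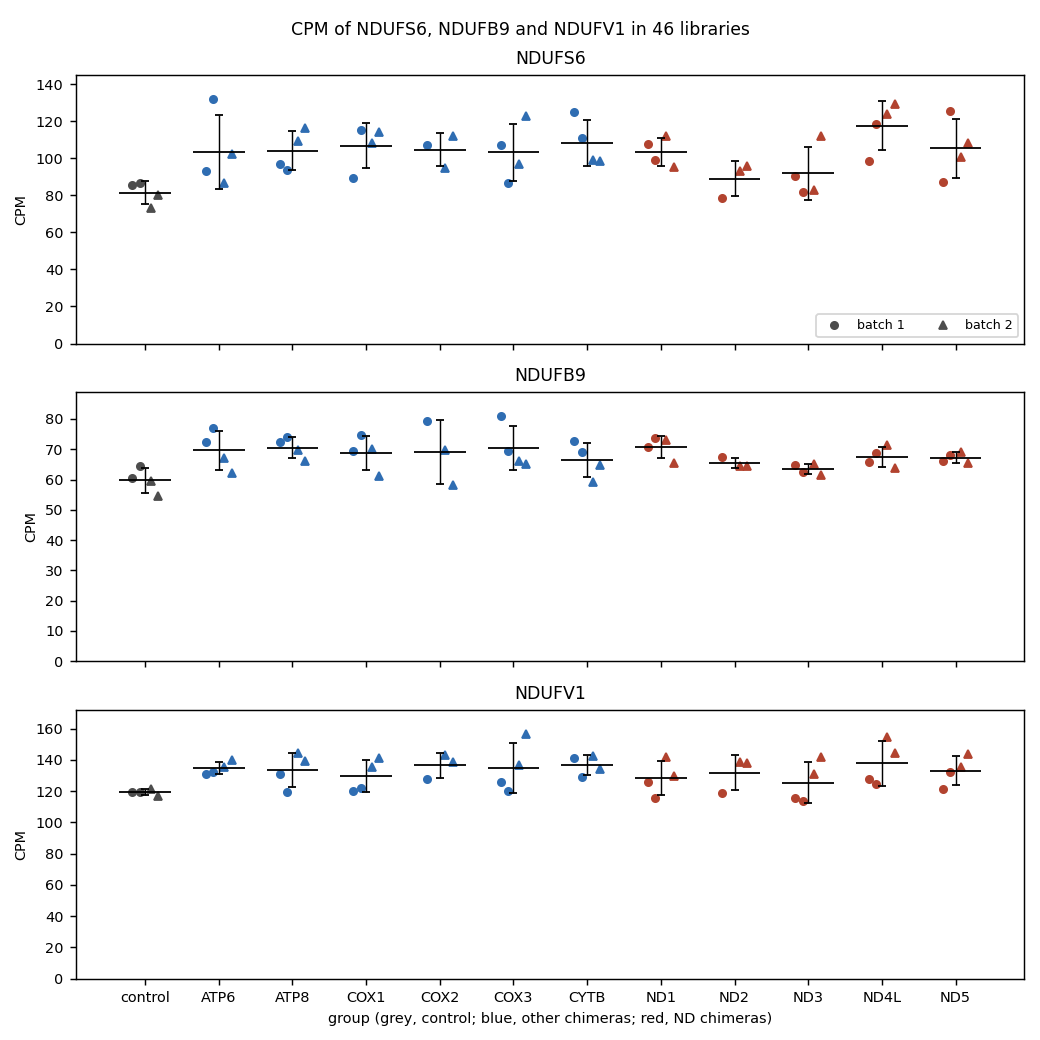
CPM of NDUFS6, NDUFB9 and NDUFV1 in each of the 46 libraries (circles, batch 1; triangles, batch 2), with the mean and SD of each group. For NDUFS6 the 4 ND4L libraries lie between 98.7 and 129.5 CPM and the 4 controls between 73.1 and 86.6 CPM.

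NDUFS6 had the highest log2 fold change of all members after 8 of the 11 chimeras. The exceptions were COX3, where NDUFA13 stood first at 0.37 (adjusted p = 0.398), ND2, where NDUFA7 did at 0.37 (0.998), and ND3, where the distal arm subunit NDUFB8 did at 0.19 (1.00). The lowest was NDUFV2 in 7 chimeras, at −0.29 after ATP8, −0.36 after COX1, −0.28 after COX2, −0.31 after ND1, −0.21 after ND2, −0.32 after ND3 and −0.40 after ND4L silencing. In these 7 its standard errors were 0.21 to 0.22, with adjusted p from 0.385 to 1.00, and none of the 11 had an unadjusted p under 0.05. NDUFV2 stood at 0.20 after ND5 and 0.058 after COX3 silencing. Lowest elsewhere were the Q module subunits NDUFA5 after ATP6 (−0.11), NDUFS8 after COX3 (−0.074) and NDUFS7 after ND5 (−0.10), and NDUFA7 after CYTB silencing (−0.13), with adjusted p of 0.776, 0.826, 0.727 and 0.861. NDUFA7 and NDUFV2 are among the 3 members under 10 CPM, and on this scale 1 high or low library moves them.

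The modules overlapped in their mean log2 fold change over the 11 chimeras. The median of these means was 0.10 in the N module (range −0.19 to 0.34), 0.064 in the Q module, 0.15 in the proximal arm (0.026 to 0.23) and 0.092 in the distal arm (−0.034 to 0.19). NDUFAB1, which also serves mitochondrial fatty acid synthesis and iron-sulfur cluster assembly, had a mean of −0.017, and NDUFA4 a mean of 0.074. 17 members had a log2 fold change above 0 after every chimera, and 5 had a mean below 0: NDUFV2, NDUFB5, NDUFA5, NDUFAB1 and NDUFS8. After NDUFS6, the highest means were those of NDUFA1 (0.23), a small membrane anchor, NDUFB9 (0.19) and NDUFB1 (0.19). Across the 38 genes the mean change was weakly related to log10 gene length (Pearson r −0.31, Spearman rho −0.28) and to GC content of the transcripts (0.31 and 0.32), as a description across genes that share libraries.

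The core subunits did not move as a block. NDUFV1 was above the control mean of its batch in 37 of 42 treated libraries and above every control in 34. NDUFS1, the largest subunit with several iron-sulfur clusters, stayed near control with log2 fold changes from −0.029 to 0.062. NDUFS8 ranged from −0.086 to 0.038, NDUFS3 from −0.030 to 0.16 and NDUFS7 from −0.10 to 0.14.

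Silencing of complex I mRNAs was compared with the rest directly, as the mean of the 5 ND chimeras (19 libraries) minus the mean of the other 6 (23 libraries), a contrast in which the control libraries cancel. No member differed. 6 members had a difference above 0 and 32 below, with a median log2 difference of −0.026 against −0.0024 over all genes. Called members numbered 0 against 0.104% of all genes, and 0 had an unadjusted p under 0.05 against 7.52% of all genes. DESeq2 called none either, against 0.217% of all genes. The lowest adjusted p was 0.67, for the N module subunit NDUFA6 with a difference of −0.069. For all 38 members the 95% interval of the difference held 0. For the 35 members over 10 CPM in control, no interval reached below −0.18 (NDUFA1) or above 0.13 (NDUFC2). For the 3 members of low counts the intervals reached from −0.28 (NDUFA13, difference −0.13) to 0.31 (NDUFA7, difference 0.11). Within batch 1 alone the median difference was −0.069 and within batch 2 alone 0.013, with no member called in either. NDUFA7 and NDUFA13, highest and lowest in the contrast, changed sign in batch 1 alone (−0.17 and 0.028).

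**Figure D4:**
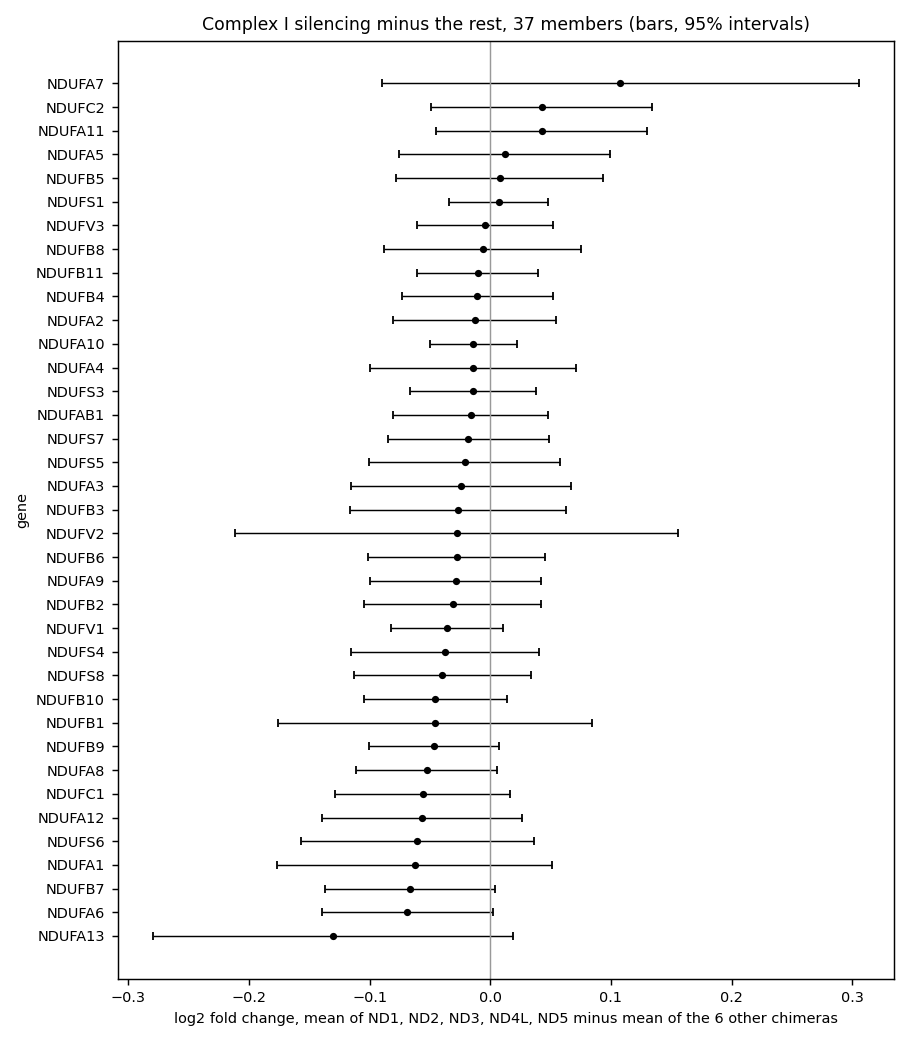
log2 difference between the mean of the ND chimeras and the mean of the 6 other chimeras for 37 members, sorted, with 95% intervals. Every interval holds 0, and the widest belong to NDUFA7, NDUFA13 and NDUFV2.

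The classes are set side by side against the shared controls. Over the 5 ND chimeras, 33 members were above 0 with a median of 0.091, 11 (28.9%) had an unadjusted p under 0.05 against 8.05% of all genes, and 0 were called against 0.0395%, nor any by DESeq2 against 0.0979%. Over the other 6, 34 were above 0 with a median of 0.095, and 14 (36.8%) had an unadjusted p under 0.05 against 14.6% of all genes. In this mean 3 members were called, all higher, against 1.19% of all genes: NDUFS6, NDUFB9 and NDUFV1. DESeq2 called 5, against 4.33% of all genes, these 3 among them. In batch 1 alone the median was 0.034 over the ND chimeras and 0.089 over the others, and in batch 2 alone 0.15 and 0.12, so that the order of the classes turned between batches. That calls stand in only the second mean does not show a difference between the classes, since the contrast above found none for these 3 genes (differences of −0.060, −0.047 and −0.036, adjusted p = 0.806, 0.721 and 0.742).

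NDUFB9, an accessory subunit of the distal arm, was 60.3 and 64.6 CPM in control batch 1 and 59.6 and 54.5 CPM in batch 2. In the 23 libraries of the other chimeras it ranged from 58.3 to 80.8 CPM with a median of 69.4, and in the 19 of the ND chimeras from 61.5 to 73.6 with a median of 65.8. Of the 42 treated libraries 41 lay above the control mean of their batch, ND3 replicate 2 being the exception, and 34 above every control. Its log2 fold change over the other chimeras was 0.21 ± 0.048 (SE, adjusted p = 0.0129) and over the ND chimeras 0.17 ± 0.048 (adjusted p = 0.313). NDUFB9 shares exon bases with the genes MTSS1 and TATDN1 on the opposite strand, which reads without strand could not tell apart.

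NDUFV1, which binds the flavin and NADH, was 119.6, 119.4, 121.4 and 117.1 CPM in the 4 controls, the tightest of the 3 genes. The 23 libraries of the other chimeras ranged from 119.2 to 156.6 CPM with a median of 135.6, and the 19 of the ND chimeras from 113.9 to 154.4 with a median of 131.0. Its log2 fold change over the other chimeras was 0.16 ± 0.041 (adjusted p = 0.0308), with 22 of 23 libraries above the control mean of their batch, and over the ND chimeras 0.13 ± 0.041 (adjusted p = 0.358). NDUFS6 over the other chimeras was at 0.37 ± 0.086 (adjusted p = 0.0196), with 23 of 23 above, and over the ND chimeras at 0.31 ± 0.087 (adjusted p = 0.31).

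Leaving out a single control could undo these 3 calls. Without control replicate 4 none of them was called, with edgeR adjusted p of 0.214 for NDUFB9, 0.203 for NDUFS6 and 0.342 for NDUFV1. Their log2 fold changes were then 0.19, 0.35 and 0.13, beside 0.21, 0.37 and 0.16 with all controls. Without control replicate 3 NDUFS6 and NDUFV1 were lost (adjusted p = 0.155 and 0.174, log2 fold changes 0.31 and 0.14). Without control replicate 1 NDUFB9 was lost (adjusted p = 0.0595, log2 fold change 0.20). Each such fit has a single control left in that batch, and the shares of all genes called in it were not counted. Within batches, no member was called in batch 1 (log2 fold changes of 0.25 for NDUFB9, 0.29 for NDUFS6 and 0.091 for NDUFV1), and NDUFS6 alone in batch 2 (0.45, adjusted p = 0.0251, beside 0.18 and 0.23 for the other two). In batch 2 alone NDUFS6 was also called over the ND chimeras (0.45, adjusted p = 0.0431). Control replicate 4 had the lowest summed member level of all 46 libraries, 2346 CPM.

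The summed level of the 38 members took 0.241 to 0.298% of all counts. In the 4 controls it was 2588, 2537, 2466 and 2346 CPM. In the 42 treated libraries it ranged from 2408 to 3052 CPM with a median of 2634, and 38 lay above the control mean of their batch. As a share of that mean, the ND libraries ranged from 94.0% (ND3 replicate 2) to 122% (ND1 replicate 3) with a median of 107%, and the other treated libraries from 97.5% to 119% with a median of 109%. The classes thus overlap over nearly their whole range.

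The members moved together with genes outside the respiratory chain. Over the 46 libraries their summed CPM followed that of 77 cytosolic ribosomal protein genes (Pearson r 0.946, Spearman rho 0.941; r 0.940 without the 2 libraries farthest from the median). It did so in batch 1 (r 0.976, 22 libraries), in batch 2 (r 0.913, 24 libraries) and after removal of the means of each group and batch (r 0.955), as a description of sums that share libraries and library sizes. The ribosomal genes had median log2 fold changes of 0.18 after ND1 and 0.013 after ND3 silencing, beside 0.17 and 0.028 for the members. The log2 summed level of the ribosomal genes was added as a covariate, an alternative chosen after the data were seen. With it the members' medians over the 11 chimeras lay between −0.0062 and 0.046. No member was called in any of the 14 comparisons, against 0.00987 to 0.38% of all genes. Calls over all genes also fell where the main fit had called a member. The share went from 0.148% to 0.0493% after ND4L silencing and from 1.19% to 0.321% over the 6 other chimeras. With the covariate NDUFS6 after ND4L silencing was at 0.40, with an edgeR adjusted p of 0.0749. What the shared movement reflects was not tested.

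**Figure D5:**
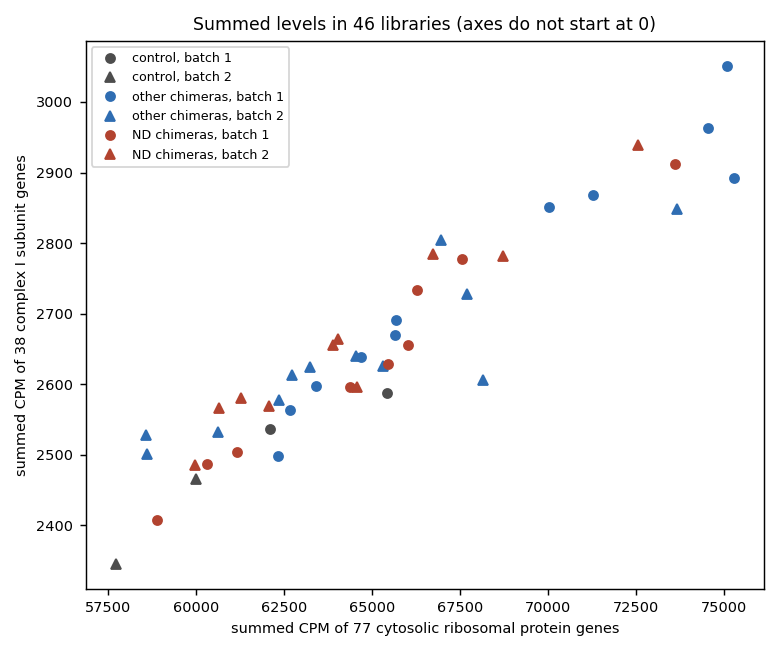
Summed CPM of the 38 members against summed CPM of 77 cytosolic ribosomal protein genes, 1 point per library (colour, class; shape, batch). The libraries lie along 1 rising band with Pearson r 0.946, and control, ND and other libraries share its lower part.

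Other genes of the pathway gave a similar picture. Of the complex I assembly factors, 21 were tested and 0 were called in any chimera or contrast by edgeR, against 0.00987 to 1.19% of all genes. Their median log2 fold change ranged from 0.012 after ND3 to 0.096 after ND1 silencing. Those with an unadjusted p under 0.05 numbered 0 after ND3 and 7 after ND1 silencing, against 3.31% and 11.7% of all genes. Of the nuclear subunits of complexes II to V, 41 were tested and 0 were called in a chimera, against 0.00987 to 0.548% of all genes. Their medians ran from 0.0096 after ND5 to 0.16 after ND1 silencing. After ND1 silencing 27 had an unadjusted p under 0.05, against 11.7% of all genes. COX4I1, a nuclear complex IV subunit, was called over the 6 other chimeras at 0.16 ± 0.043 (adjusted p = 0.0388), where 1.19% of all genes were called. In the contrast of complex I silencing minus the rest, the assembly factors had a median of −0.012 and complexes II to V of −0.025. In each list 0 were called and 2 had an unadjusted p under 0.05, against 0.104% and 7.52% of all genes. The members had −0.026, 0 and 0. The 78 mitochondrial ribosomal proteins had medians from −0.0020 after ND5 to 0.13 after ND1 silencing, with 1 called after ATP8 and 2 after CYTB silencing and 3 over the 6 other chimeras, against 0.0641%, 0.548% and 1.19% of all genes, all higher and MRPL24 among them each time. In complex I minus rest 0 of them were called, and 12 had an unadjusted p under 0.05 against 7.52% of all genes, 11 of them lower. Of the 77 cytosolic ribosomal proteins, 1 was called after CYTB and 1 after ND4L silencing, in both cases RPS3. Over the 6 other chimeras 3 were called, RPS3 among them, all higher. The shares of all genes were 0.548%, 0.148% and 1.19%. In complex I minus rest 0 of the 77 were called and 5 had an unadjusted p under 0.05, against 0.104% and 7.52% of all genes.

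Members varied together across libraries to different degrees. Over 703 pairs the median Pearson r of log2 CPM over the 46 libraries, batch means removed, was 0.37, with 213 pairs over 0.5. The members most like NDUFS6 were NDUFV1 (r 0.77), NDUFB10 (0.77) and NDUFA3 (0.76). Most like NDUFB9 were NDUFB2 (0.65) and NDUFA8 (0.61), and most like NDUFV1 were NDUFS6 (0.77), NDUFA8 (0.69) and NDUFB2 (0.65). NDUFV2 had a mean r of −0.16 with the other members.

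The promoters of many members carry motifs of factors known to act on genes of the respiratory chain. Of the 38 members, 32 had a promoter of 250 bases before to 50 bases after the start in the RefSeq table (GRCh38.p14). CGCANGCG, a short form of the site of NRF1, a regulator of respiratory chain genes, occurred on either strand in 12 of the 32 (37.5%) against 10.6% of 27305 promoters of the same length. AANATGGC, the core of the YY1 site, occurred in 13 (40.6%) against 6.82%. GGGCGG, bound by SP and KLF factors, occurred in 65.6% against 44.6%, CCGGAAG of the ETS family in 12.5% against 10.7%, and CCAAT of NFY in 25.0% against 35.7%. The ERR site TCAAGGTCA occurred in 0 of the 32, against 0.359%. A pair of matches may share bases, and 5 members held both an NRF1 and a YY1 match. Within 100 bases before the start, 9 members held an NRF1 match, and 3 of these windows, clear of the exons that GENCODE 29 gives the gene, are given here with the match in capitals, 5′ to 3′ along the gene, to set the promoter of the called gene beside 2 others.
NDUFS6, chr5:1801351-1801380 (+): cagaagccgtgCGCATGCGttagcgctaag
NDUFA9, chr12:4649024-4649053 (+): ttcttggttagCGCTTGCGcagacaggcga
NDUFB4, chr3:120596263-120596292 (+): ctctgctaacgCGCAGGCGcacttcctgaa
The match of NDUFS6 begins 45 bases before the start and reads the same on both strands, that of NDUFB4 begins 62 and that of NDUFA9 79 bases before it. The mean log2 fold change over the 11 chimeras was 0.34 for NDUFS6, 0.092 for NDUFB4 and 0.071 for NDUFA9. Members with an NRF1 match had a median of these means of 0.11 (range −0.027 to 0.34) and the 20 without 0.087 (−0.19 to 0.23), ranges that overlap over most of their length. For the YY1 match the medians were 0.085 with and 0.092 without. A match is a stretch of letters, and binding was not measured here.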

How the data were processed

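Poly(A) RNA of 46 HEK293T samples was sequenced (NovaSeq X Plus). The authors deposited raw counts of reads per gene (GRCh38.p12 per the submitters' processing notes, which also name R 4.3.0, DESeq2 1.40.2 and limma 3.56.2), without normalization, and a gene length in bases. Aligner, counting program and strand are not given in the sources used here. All 58735 gene IDs match GENCODE 29 by ID, start and end.

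The main test was that of edgeR 4.0.16 under R 4.3.3 (TMM, filterByExpr minimum count 10, terms for group and batch, quasi-likelihood F test, Benjamini-Hochberg adjustment over 20272 genes). DESeq2 1.42.0 was an alternative. CPM and RPKM used TMM library sizes, and log2 CPM a prior count of 2. With 18876395 or more counts per library, counting error is largest for the 3 members under 10 CPM. The study calls the replicates biological. Members, gene lists and motifs were chosen with earlier results of these data known. Genes named with values are those called, the highest and lowest member of each comparison, the 3 highest and 3 lowest by RPKM, the core subunits, and the 3 members most like each called one; NDUFA1, NDUFA6, NDUFAB1, NDUFB1, NDUFB4, NDUFB5 and NDUFC2 were named after their values were seen. The values of 1 member, counted in all totals, are not reported here.

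Same-numbered samples deviated together (42 correlations with control of 0.206 to 0.577). Within a batch the 40 correlations were −0.056 to 0.13, and 8 exceeded 0.1. The replicates of a batch mirror each other about their mean and give the same correlation. These counts therefore hold each value once for either replicate, not as separate evidence. Most of the pairing was thus that of the batch, which the methods give as shared days and reagents. A weaker pairing within a batch remains possible. With the replicate number as a block, 1.08% of all genes were called after CYTB silencing, against 0.548% with batch. After ATP6 silencing the share was 0.00987% with either. Replicates differed by more than sampling noise (chi-square per degree of freedom 3.47 to 24.8 over 66 pairs). The test was tried on simulated counts without a batch effect, with 200 genes changed after ND4L silencing by larger folds than any member showed. It called 187 of these, 0 in the wrong direction, and 7 unchanged genes. Changes as small as those of the members were not simulated.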

Additional observations from a re-analysis of the deposited data

Results flagged for a closer look

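Of 70 groups of 4 values tested for a single distant sample by Dixon's ratio, 4 were flagged, and chance alone flags about 5% of groups. The summed member level after ND4L silencing was 2504 CPM in replicate 1 and 2778 to 2784 CPM in the other 3 libraries. The remaining flags concern members of low counts: NDUFV2 after ND3 silencing at 1.48 CPM in replicate 1 (1.81 to 1.86 in the others), NDUFA7 after ATP6 silencing at 2.41 CPM in replicate 4 (1.61 to 1.71) and NDUFA7 in control at 2.08 CPM in replicate 4 (1.34 to 1.46). No member differed between complex I silencing and the rest in the test of the difference itself.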

How the results depend on the processing

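Under the alternatives, 362 medians moved by less than 1 SD between replicates and 10 by more. That SD was 0.028 to 0.12 by chimera, beside medians of 0.028 to 0.17, so the count does not show that the medians are stable. Of 240 medians of a single chimera, 4 fell below 0: COX1 in batch 1 alone (−0.0013), ND3 in batch 1 alone (−0.043), ND3 without control replicate 4 (−0.0039) and COX2 with the ribosomal covariate (−0.0062). The causes of the changes were not tested.

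Without the filter on low counts, members called numbered 1 after ATP6, 3 after ATP8, 2 after COX1, 2 after COX2 and 5 after COX3 silencing. They numbered 6 after CYTB, 6 after ND1, 5 after ND4L and 3 after ND5 silencing. In the mean of the ND chimeras 2 were called, against 0.179% of all genes, and in that of the others 11, against 1.15%. Over the 11 chimeras, 7.89% of member tests were called against 0.416% of all tests. That fit tested 47354 genes beside 20272 in the main fit, adding genes of low counts, whereas all 38 members pass the filter. The 2 shares are therefore not of like genes. The fit itself also changed: NDUFS6 after ATP6 silencing stayed at a log2 fold change of 0.35, with an edgeR adjusted p of 7.9e-06 against 0.352 with the filter. DESeq2 called 1 after ATP8, 1 after COX2, 1 after COX3, 2 after CYTB, 2 after ND1 and 2 after ND4L silencing and 5 in the mean of the others (2.23% of member tests with an adjusted p against 0.954% of all over the 11 chimeras). A fit of only the libraries compared called 1 after ATP8, 1 after COX1, 2 after COX2, 1 after COX3, 6 after CYTB, 6 after ND1, 4 after ND4L and 1 after ND5 silencing (5.26% of member tests against 0.828% of all). With the replicate number as a block in place of batch, 1 was called after COX3, 2 after CYTB and 2 after ND1 silencing. The block moved no other count of members by over 1.5 times. Over the 11 chimeras it called 1.44% of member tests against 0.4% of all. With a GC trend removed (added after the data were seen), 2 were called after COX3, 1 after CYTB and 2 after ND1 silencing. The shares of all genes there were 0.878%, 0.898% and 0.715%. After CYTB silencing 1 was called with a length trend removed (0.73% of all genes) or a minimum mean of 1 CPM (0.99%). After ND4L silencing, 3 were called in batch 2 alone, against 0.835% of all genes. None was called without a batch term (0.00987%), in batch 1 alone (0.0144%) or with the ribosomal covariate (0.0493%). In the mean of the others, 1 was called in batch 2 alone, against 0.232% of all genes. None was called in that mean without a batch term (0.0839%), in batch 1 alone (0.0287%) or with the ribosomal covariate (0.321%). In batch 2 alone 1 was called in the mean of the ND chimeras, against 0.104% of all genes.

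With the ribosomal covariate the median was 0.012 after ATP8, −0.0062 after COX2, 0.0091 after CYTB, 0.012 after ND1 and 0.023 after ND2 silencing and 0.011 in the mean of the others. In batch 1 alone, with a single treated library each, it was 0.17 after COX2 and 0.027 after ND2. In complex I minus rest, NDUFA7 turned to −0.17 and NDUFA13 to 0.028 in batch 1 alone. The order by CPM correlated at 0.606 with that by RPKM.

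Leaving out 1 library at a time gave 0 to 1 members called after COX2, 0 to 2 after CYTB and 0 to 2 after ND4L silencing. It gave 0 to 4 in the mean of the others and 0 elsewhere. The shares of all genes called in these fits were not counted. The median ranged from 0.057 to 0.16 after COX2 silencing and from −0.033 to −0.011 in complex I minus rest. A lone library left in a batch was assumed to vary like the other groups.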
